A study of Mus musculus with 2 samples.

Results

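Genes of the immediate early and heat shock responses, 35 of the 55450 genes in the count tables, are described here in CD45+ cells from B16F10 tumours of the mouse. The members were a fixed list of symbols: 13 transcription factor genes of the AP-1 group (Fos, Fosb, Fosl2, Jun, Junb, Jund and Atf3), the EGR group (Egr1, Egr2 and Egr3) and the NR4A group (Nr4a1, Nr4a2 and Nr4a3), 15 feedback and other early genes, and 7 heat shock genes. The WT library came from Kcnj2f/f mice and the KO library from Lyz2-Cre-Kcnj2f/f mice, so both carried the floxed allele and only the KO mice carried Lyz2-Cre, which is active in myeloid cells. B16F10, a transplantable melanoma line, was injected under the skin, and the tumours were dissociated on day 10, and cells of 3 mice were combined per library. CD45+ cells were isolated by flow cytometry and counted with the 10x Chromium 3' kit, V3. No ages were stated in the labels. There was 1 library for each genotype, so no comparison below has a replicate, and every interval covers counting error only.

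Immediate early genes are transcribed within minutes of a stimulus from factors already present in the cell. AP-1 proteins are dimers of Fos and Jun family members, EGR proteins are zinc finger factors downstream of ERK and serum response factor, and NR4A proteins are orphan nuclear receptors induced by antigen receptor and other calcium or cyclic AMP signals. Many of the feedback genes switch the response off again: the Dusp genes encode phosphatases of MAP kinases, and Zfp36 and Zfp36l1 encode proteins that destabilise AU-rich messages. Heat shock genes are driven by heat shock factor 1 when proteins misfold and encode chaperones. Enzymatic dissociation of tissue is known to induce both kinds of gene, and no undissociated sample was analysed here, so a response in the tumour and one during cell preparation cannot be told apart for any value below.

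The WT library held 9677 barcodes and 55219440 UMIs, and 6356 barcodes and 57047535 UMIs were in the KO library. A UMI is a molecular tag that marks 1 captured transcript. After filtering, 8936 WT cells with a median of 4398.5 UMIs and 5688 KO cells with a median of 8026 UMIs remained, and 63 barcode sequences occurred in both. Cells were clustered without the members, and clusters were called X-like from marker genes. The 11 classes with at least 100 cells in each library were compared, and 1787 WT and 632 KO cells stayed in unnamed clusters. CD45 does not mark melanoma cells, so the 129 WT and 103 KO melanoma-like cells lay outside the labelled cell type. Kcnj2, the targeted gene, stood at 19.4 against 9.95 counts per 1000000 UMIs (CPM) in macrophage-like cells (WT against KO throughout, log2 ratio −0.96, interval −1.42 to −0.50) and at 13.2 against 3.26 in monocyte-like cells. The sources used here do not say whether the counted 3' ends lie in the deleted stretch, so this is no check of the deletion.

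Promoter sequences of early and heat shock members are shown with the motifs of factors known to drive such genes. RefSeq windows on GRCm38.p6 reach from 250 bases before to 50 bases after a start site, and 29 of the 35 members have at least 1 window. Egr1, Egr3, Ier2, Rgs1, Hspa8 and Hsp90aa1 have none in the table. The early genes Egr2, Fos, Nr4a1 and Dusp1 are shown 5′ to 3′ along their own strand up to the start site. Capitals mark TGACG or its reverse complement, the core of the cyclic AMP response element, and the CArG box, which is CC, 6 bases of A or T, then GG, the site bound by serum response factor. Dusp1 is shown without the bases next to its start. Their positions are chr10:67537619-67537868 (+) for Egr2, chr12:85473640-85473889 (+) for Fos, chr15:101266596-101266845 (+) for Nr4a1 and chr17:26508523-26508722 (−) for Dusp1.
Egr2: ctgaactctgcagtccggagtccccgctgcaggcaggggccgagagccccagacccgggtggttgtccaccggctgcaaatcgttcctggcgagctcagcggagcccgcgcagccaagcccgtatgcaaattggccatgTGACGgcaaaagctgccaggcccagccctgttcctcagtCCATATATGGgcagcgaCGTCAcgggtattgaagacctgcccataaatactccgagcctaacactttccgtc
Fos: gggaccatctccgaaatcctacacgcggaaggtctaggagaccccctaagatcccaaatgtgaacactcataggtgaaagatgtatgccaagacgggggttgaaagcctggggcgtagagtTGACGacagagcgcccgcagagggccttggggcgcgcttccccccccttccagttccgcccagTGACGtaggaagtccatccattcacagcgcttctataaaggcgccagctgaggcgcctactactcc
Nr4a1: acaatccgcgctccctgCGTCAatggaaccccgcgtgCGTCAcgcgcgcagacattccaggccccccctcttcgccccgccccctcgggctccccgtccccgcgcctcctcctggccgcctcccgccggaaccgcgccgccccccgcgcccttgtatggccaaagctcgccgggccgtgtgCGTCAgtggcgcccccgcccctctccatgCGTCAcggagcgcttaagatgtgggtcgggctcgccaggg
Dusp1: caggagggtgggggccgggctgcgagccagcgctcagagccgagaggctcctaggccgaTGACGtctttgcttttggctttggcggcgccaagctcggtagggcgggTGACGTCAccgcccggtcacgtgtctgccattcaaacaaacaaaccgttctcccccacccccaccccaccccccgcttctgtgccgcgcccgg

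The heat shock genes Hspa1a and Hspa1b follow because they are near copies, and Hspe1 because it was the heat shock member with the lowest ratio in macrophage-like cells. Capitals mark GAANNTTC or TTCNNGAA, the paired units of a heat shock element. Hspa1a is shown from chr17:34972157-34972406 (−) and Hspa1b from chr17:34959239-34959488 (−). For Hspe1 only the site at chr1:55088053-55088082 (+) is given, which lies in an exon of the neighbouring gene Hspd1.
Hspa1a: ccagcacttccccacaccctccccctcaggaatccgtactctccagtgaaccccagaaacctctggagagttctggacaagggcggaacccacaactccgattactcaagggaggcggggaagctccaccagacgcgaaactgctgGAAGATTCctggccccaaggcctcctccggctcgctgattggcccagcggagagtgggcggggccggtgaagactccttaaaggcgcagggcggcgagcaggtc
Hspa1b: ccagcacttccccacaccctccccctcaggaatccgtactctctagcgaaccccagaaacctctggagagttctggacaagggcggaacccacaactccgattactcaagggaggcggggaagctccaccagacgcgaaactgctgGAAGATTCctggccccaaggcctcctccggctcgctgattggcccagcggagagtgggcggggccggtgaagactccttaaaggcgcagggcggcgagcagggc
Hspe1: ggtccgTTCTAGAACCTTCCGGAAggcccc

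The motifs were searched on both strands in all 32851 windows. TGACG was in 20.8% of all windows, and at least 1 window held it for 6228 of 27025 genes in the table, 8 of 11 AP-1, EGR and NR4A genes, 7 of 13 feedback genes and 3 of 5 heat shock genes. The full element TGACGTCA, which contains TGACG, was in 1.79% of windows and, among members, in those of Btg2, Dusp1, Maff and Ppp1r15a. A CArG box was in 1.63% of windows and in those of Egr2, Dusp5 and Zfp36. GAANNTTC was in 7.86% of windows and in those of Dnaja1, Hspa1a, Hspa1b, Hspe1, Fosl2 and Jun, and TTCNNGAA was in 8.52%, Hspe1 and Egr2 among them. These matches are descriptions of letters, and the motifs occur in members of more than 1 group. The Hspa1a and Hspa1b stretches shown are alike at 247 of 250 bases. Of the 31-base words of the Hspa1a coding sequence 88.4% also occur in the Hspa1b transcript, against 0% of those of its 3' UTR, so counts split between the pair are uncertain wherever a tag falls in the coding sequence.

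Levels of the early genes ranged widely between classes, and those of the heat shock genes narrowly. In the WT library the 13 AP-1, EGR and NR4A genes together stood at 13268 CPM in monocyte-like cells (interval 13110 to 13427), 9231 in macrophage-like cells (9142 to 9321) and 6322 in cDC2-like cells, type 2 conventional dendritic cells. The other WT classes lay between 1506 in CD8 T-like cells and 3610.1 in cDC1-like cells, type 1 conventional dendritic cells. The order of the first 3 was the same in the KO library, with 14701 in monocyte-like, 14008 in macrophage-like and 7604 in cDC2-like cells, and the lowest level was 1531 in melanoma-like cells. Neighbours whose intervals overlapped were cDC1-like and NK-like cells in the WT library, and, in the KO library, B-like with CD4 T-like, NK-like with cDC1-like and cDC1-like with pDC-like cells, plasmacytoid dendritic cells.

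The 7 heat shock genes followed another order. Their sum was highest in melanoma-like cells, at 6716 in the WT and 5748 CPM in the KO library. Hsp90aa1 supplied 37.3% and 36.1% of that sum, and the 5 cells richest in heat shock UMIs held 34.5% and 33.6% of them. Hspa1a, by contrast, was lower in melanoma-like cells than in each immune class of the same library. Among the immune classes the heat shock sum lay between 3149 in migratory DC-like cells, dendritic cells with the lymph node homing programme, and 5510.4 in cDC1-like cells in the WT library. In the KO library the immune range was 3002 in NK-like to 5097 in monocyte-like cells. UMIs count transcript ends and are not scaled by length, so the 2 sets are set against each other only to compare classes and libraries. The UMIs of the activation set, as the 13 genes are called below, were 2.38 times those of the heat shock set in WT and 3.71 times in KO macrophage-like cells. That ratio was 2.97 and 2.88 in monocyte-like cells, 1.27 and 1.67 in cDC2-like cells and 0.42 and 0.57 in CD8 T-like cells. In macrophage-like cells Fos supplied 30.5% of the activation UMIs in the WT and 29.6% in the KO library. Hspa8, the housekeeping HSC70, supplied 38.8% and 40.8% of their heat shock UMIs. The sums and their ratios thus lean on single members, and the heat shock sum follows the inducible genes only in part. For macrophage-like cells medians over members are therefore given beside the sums.

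**Figure D1:**
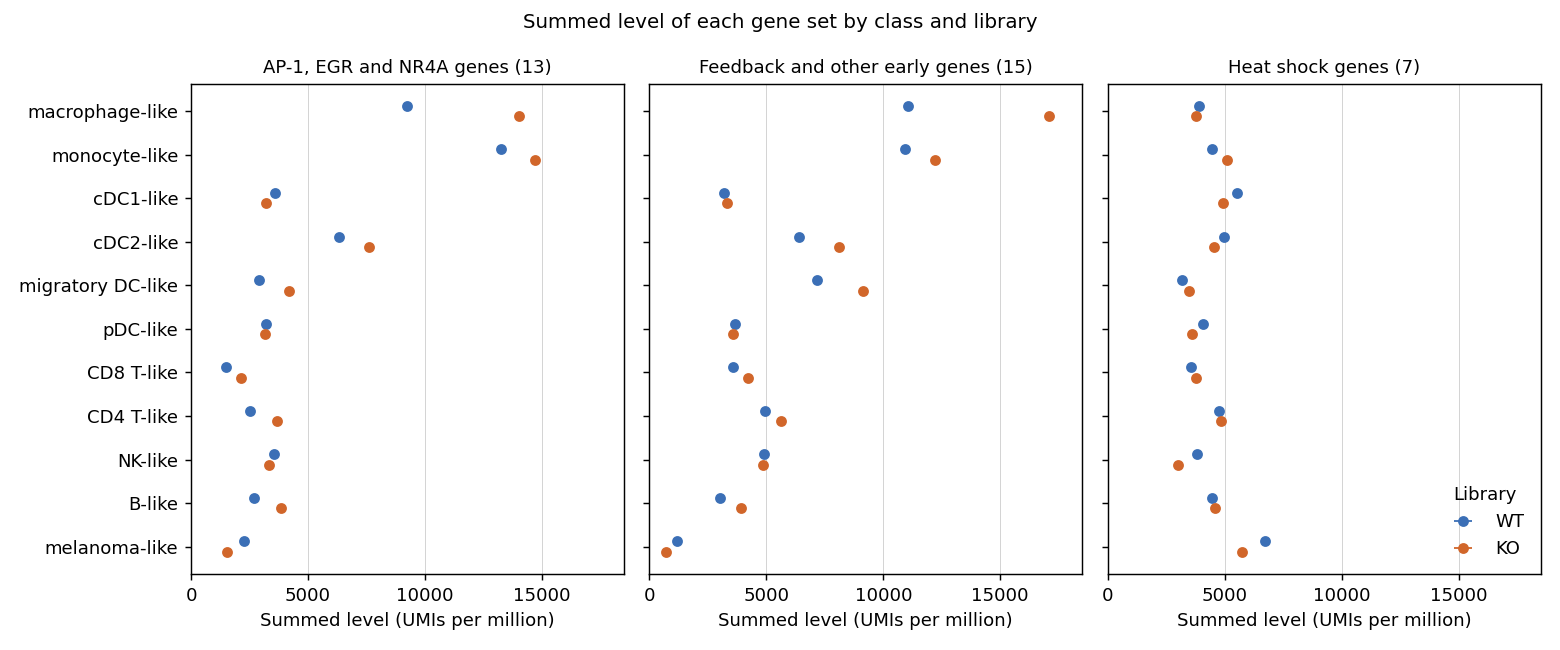
Summed CPM of the AP-1, EGR and NR4A genes, the feedback genes and the heat shock genes in 11 classes, for the WT (blue) and KO (orange) library, with exact Poisson 95% intervals that are mostly narrower than the points. The activation set of macrophage-like cells moves from 9231 to 14008 between libraries, whereas the heat shock points of every class lie between 3002 and 6716.

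The macrophage-like cells of the KO library held more early gene transcripts and heat shock transcripts within the limit for a call. The activation sum was 9231 in the WT and 14008 CPM in the KO library, a log2 ratio of KO over WT of 0.60 (interval 0.59 to 0.62), and the heat shock sum was 3886 and 3774, a log2 ratio of −0.04 (−0.07 to −0.01). A gene or sum is called higher or lower where the log2 ratio is at least 0.5 in size and the interval leaves out 0, among genes with at least 20 UMIs over both libraries. By that rule 10 of 13 activation members were called higher and 0 lower in macrophage-like cells, against 6.46% of all 11119 genes tested called higher and 8.06% called lower. The median member ratio was 0.63, beside −0.02 over all genes. Of the 7 heat shock members 0 were called higher and 1, Hspe1, lower, and their median ratio was 0.00.

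Monocyte-like cells, in which Lyz2-Cre can also be active, differed less between libraries. Their activation sum had a log2 ratio of 0.15 (0.13 to 0.17), with 2 of 13 members called higher and 0 lower, beside 5.56% and 4.75% of all genes. The heat shock sum had a ratio of 0.19, with 0 of 7 members called higher and 1 lower. In cDC2-like cells the activation ratio was 0.27, with 6 of 13 members higher and 0 lower beside 4.6% and 5.82% of all genes. Migratory DC-like cells had an activation ratio of 0.53 (0.49 to 0.56), with 9 of 13 members higher and 0 lower beside 4.69% and 6.65%. In their smaller cluster, with 137 WT and 159 KO cells, that ratio was 0.27. The heat shock ratios of cDC2-like and migratory DC-like cells were −0.13 and 0.14, with 0 of 7 members called in either direction.

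cDC1-like and pDC-like cells showed no such shift of the sum. The activation ratio was −0.17 in cDC1-like cells, with 2 of 13 members higher and 1 lower beside 3.47% and 3.24% of all genes. It was −0.02 in pDC-like cells, with 1 higher and 2 lower beside 3.47% and 4.32%. Their heat shock ratios were both −0.17, with 0 of 7 members called. The pDC-like class joined 2 clusters. The larger, with 214 WT and 143 KO cells, had an activation ratio of 0.02 and a heat shock ratio of −0.19. The smaller, with 135 and 29 cells, had 0.33 and 0.45. The smaller one was shallow, with a median of 1600 UMIs and a mean mitochondrial share of 9.74%, against 8351 and 2.68% in the larger. The part of this unlike make-up in the pooled pDC-like values was not tested.

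The lymphoid classes, which lie outside the myeloid lineage that Lyz2-Cre marks, were divided. CD4 T-like cells had an activation ratio of 0.55 (0.50 to 0.60), with 9 of 13 members called higher and 0 lower beside 4.46% and 3.16% of all genes. In CD8 T-like cells it was 0.51 (0.46 to 0.57), with 7 higher and 0 lower beside 5.15% and 3.71%. B-like cells stood at the limit with 0.50 (0.46 to 0.54), 5 members being higher and 1 lower beside 3.55% and 8.29%. NK-like cells had a ratio of −0.08 (−0.14 to −0.03), with 2 members higher and 0 lower beside 2.86% and 4.47%. The heat shock ratios were 0.03, 0.08, 0.04 and −0.34 in the same order, and the NK-like class had 3 of 7 heat shock members called lower, against at most 1 called in the other lymphoid classes.

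Over the 11 classes the activation sum was called higher in the KO library in 5 and lower in 1, and the heat shock sum was called in 0. Counted as pairs of gene and class, 57 of 142 activation pairs were called higher and 11 lower, 35 of 163 feedback pairs higher and 11 lower, and 2 of 77 heat shock pairs higher and 8 lower. Over all genes 5.55% of 115739 such pairs were called higher and 5.64% lower. The class with the lower activation sum was the melanoma-like one, whose ratio changed sign to 0.67 with cells weighted equally. It held 7 of the lower activation pairs, 7 of the lower feedback pairs and 3 of the lower heat shock pairs. Of the activation pairs called higher, 4 were in that class. The classes of a library come from the same pooled mice and 1 preparation, so they are not replicates of each other. How many classes pass the limit depends on the settings: 3 did so when every cell was given equal weight, and 2 at a coarser clustering, in which the macrophage-like class held 69 WT and 49 KO cells, too few to compare, and no cluster was named monocyte-like.

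**Figure D2:**
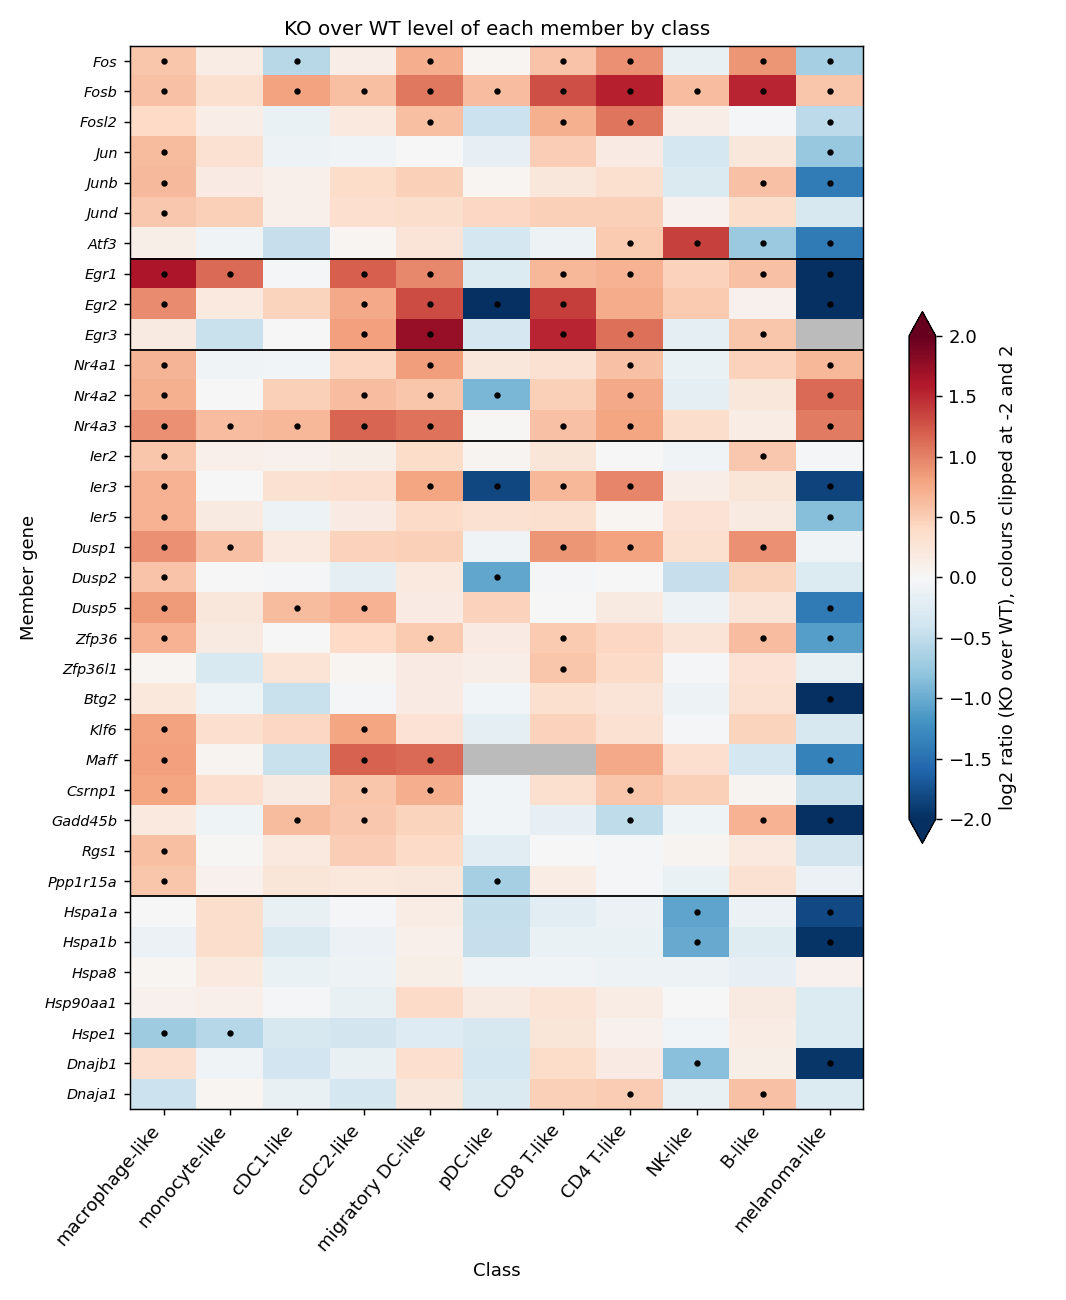
Log2 ratio of KO over WT level for the 35 members (rows, with lines between the AP-1, EGR, NR4A, feedback and heat shock groups) in 11 classes (columns). Dots mark values called higher or lower, grey marks fewer than 20 UMIs, and the dots above 0 lie mostly in the upper 4 groups, with 2 among the heat shock genes.

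Several other measures moved with these differences. Macrophage-like cells had medians of 8494.5 UMIs in the WT and 9836 in the KO library, and their monocyte marker sum was 3415 against 4863 CPM, with 9 of 9 markers detected in both. Markers of lymphocytes were lower in the KO library in the same cells: the 8 CD8 T markers summed to 322 against 38.2 and the 8 B markers to 212 against 15.9 CPM. The KO library also held fewer lymphocytes: 1386 WT against 282 KO cells were CD8 T-like, and 1832 against 397 were B-like. In CD4 T-like cells the median mitochondrial share was 2.37% against 3.08%, and the B markers summed to 89.5 against 18.8 CPM. The part of the marker levels and cell numbers in the results was not tested. The activation ratio of macrophage-like cells was 0.60 with mitochondrial UMIs limited to 5% and 0.52 with only cells of 3000 to 15000 UMIs, a setting in which the calls for Fos, Dusp2, Ppp1r15a and Rgs1 were lost.

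Of the 3 transcription factor groups, EGR had the highest ratio of the sum in macrophage-like (interval 1.44 to 1.56), monocyte-like (1.05), cDC2-like (1.08) and migratory DC-like cells (1.04). It also led in the lymphoid classes: CD8 T-like (0.81), CD4 T-like (0.74), B-like (0.56) and NK-like cells (0.41, not called). In cDC1-like, pDC-like and melanoma-like cells the NR4A ratio was the highest. Egr1, a zinc finger factor downstream of ERK, stood at 518 against 1587 CPM in macrophage-like cells, a log2 ratio of 1.62 (1.55 to 1.68). It was 277 against 611 in monocyte-like cells (1.14) and 144 against 329 in cDC2-like cells (1.19). In all 3 classes the KO library lay above the WT library by more than the counting intervals. In migratory DC-like cells Egr1 stood at 65.7 against 128 (0.96). The T-like classes followed, with 67.5 against 107.5 in CD8 T-like (0.67) and 106 against 172 in CD4 T-like cells (0.70). B-like cells had 180.2 against 272 (0.59), a call that was lost within their largest cluster. In cDC1-like cells, at 135 against 133 (−0.02), in pDC-like cells, at 48.8 against 40.5 (−0.27), and in NK-like cells, at 132 against 181 (0.46), Egr1 was not called.

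Egr2 and Egr3 are relatives of Egr1 that limit T cell activation. Egr2 in macrophage-like cells was 116 against 224 CPM (0.95, interval 0.81 to 1.10), the second highest member ratio there, while Egr3 was 13.7 against 15.6 (0.18, interval −0.27 to 0.65). In migratory DC-like cells they had the highest ratios of all members, Egr3 with 3.52 against 11.7 (1.74) and Egr2 with 4.99 against 12.3 (1.30). These values rest on 12 against 84 and 17 against 88 UMIs, and the Egr2 call was lost with cells weighted equally. CD8 T-like cells likewise had Egr3 at 6.28 against 18.0 (1.52) and Egr2 at 4.87 against 12.7 (1.38), and the Egr2 call was lost without the 5 cells of each library richest in it. Both genes thus lay higher in the KO library in these classes, on few UMIs. CD4 T-like cells had Egr3 at 8.47 against 18.2 (1.10), on 27 and 30 UMIs. In pDC-like cells Egr2 went the other way with 10.7 against 1.96 (−2.44), on 21 and 3 UMIs. Over all classes EGR members were called higher in 16 of 32 pairs and lower in 3, beside 5.55% and 5.64% of all pairs of gene and class. Of the 3 lower calls 2 came from melanoma-like cells.

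NR4A genes are reporters of antigen receptor signals in T cells and are also induced in activated myeloid cells. Nr4a1 stood at 685 against 1096 CPM in macrophage-like cells (0.68, interval 0.62 to 0.74). Monocyte-like cells had 947 against 904 (−0.07), which is not called. The Nr4a1 ratio was thus past the limit in macrophage-like and within it in monocyte-like cells, and the difference between the classes was not tested. In dendritic cells Nr4a1 was 372 against 501 in the cDC2-like (0.43), 98.0 against 174 in the migratory DC-like (0.83) and 156 against 151 in the cDC1-like class (−0.05). In CD4 T-like cells it was 133 against 199 (0.58), and in CD8 T-like cells 85.9 against 106 (0.30), within the limit. The migratory DC-like and CD4 T-like calls were lost in 3 and 2 of the alternative settings. It was 108 against 149 in B-like (0.47), 181 against 165 in NK-like (−0.13) and 86.4 against 101 in pDC-like cells (0.23).

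Nr4a3 was called higher in 8 of 11 classes, beside 4 for Nr4a1, 5 for Nr4a2 and 5.55% of all pairs of gene and class. Each of these 3 counts includes the melanoma-like class, which cannot be given a direction. Values of Nr4a3 in immune cells follow. Its level was highest in migratory DC-like cells, at 327 against 690.2 CPM (1.08), and its ratio was highest in cDC2-like cells, at 157 against 350.1 (1.16). Macrophage-like cells had 79.8 against 150.2 (0.91), monocyte-like cells 38.7 against 59.2 (0.61) and cDC1-like cells 36.0 against 57.0 (0.66). In pDC-like cells it was 34.5 against 35.3 (0.03). The monocyte-like and cDC1-like calls were each lost in 1 setting, at ratios of 0.45 and 0.33, as was the CD8 T-like call. Nr4a2, a close relative, was 177 against 291 in macrophage-like (0.71) and 205 against 317 in cDC2-like cells (0.62), and 25.9 against 13.7 in pDC-like cells (−0.92), on 51 and 21 UMIs, a call lost with cells weighted equally. Together the NR4A genes were called higher in 17 of 33 pairs and lower in 1, beside 5.55% and 5.64% of all pairs of gene and class. Of the 17 higher calls 3 came from melanoma-like cells.

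Among the AP-1 genes Fosb stood out by the number of classes. Fosb, a Fos relative with a short-lived message, was called higher in 10 of 11 classes, beside 5.55% of all pairs of gene and class. The melanoma-like class is among the 10, and in monocyte-like cells the Fosb ratio was 0.32. The ratios were highest in lymphoid cells: 116 against 344 CPM in CD4 T-like (1.56, interval 1.37 to 1.76), 134 against 387 in B-like (1.53) and 82.4 against 202 in CD8 T-like cells (1.29). In migratory DC-like cells it was 93.6 against 195 (1.06) and in cDC1-like cells 122 against 214 (0.81), the highest member ratio of that class. It was 165 against 248 in macrophage-like cells (0.59), 185 against 284 in NK-like cells (0.61) and 98.1 against 150.3 in pDC-like cells (0.62). The KO level lay above the WT level in each of the 11 classes. Calls were lost in cDC2-like cells in 1 setting and in pDC-like cells in 2 settings.

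Fos, the classical dimer partner of Jun, varied in direction. It stood at 2812 against 4141 CPM in macrophage-like cells (0.56, interval 0.53 to 0.59) and at 4940 against 5503 in monocyte-like cells (0.16). The macrophage-like call was lost at a ratio of 0.49 when only cells of 3000 to 15000 UMIs were used and at 0.45 when the members were kept among the genes to cluster. In CD4 T-like cells Fos was 323 against 609 (0.91), in B-like cells 349.8 against 644 (0.88), in migratory DC-like cells 413 against 687 (0.73) and in CD8 T-like cells 183 against 272 (0.57). By contrast cDC1-like cells had 1433 against 979.5 (−0.55, interval −0.61 to −0.49), the lowest member ratio of that class. There the 5 cells richest in activation UMIs held 15.9% of them in the WT and 9.18% in the KO library, and the Fos call was lost at Leiden resolution 0.5. Fos was 1758 against 1926 in cDC2-like (0.13), 808 against 833 in pDC-like (0.04) and 490.5 against 442 in NK-like cells (−0.15), none of which is called.

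The remaining AP-1 members were called in few classes. Jun was called higher in macrophage-like cells only, at 885 against 1374 CPM (0.63), and its median ratio over classes was 0.01. Junb was 1311 against 2064 in macrophage-like (0.65) and 293 against 441 in B-like cells (0.59), and Jund was 215 against 311 in macrophage-like cells (0.54), a call lost with cells weighted equally. Fosl2, which prolongs the AP-1 response, was highest in ratio in CD4 T-like cells, at 79.1 against 165 (1.06). Atf3, a stress-induced factor that often represses, was not called in the macrophage lineage, at 2034 against 2215 in macrophage-like (0.12) and 3034 against 2879 in monocyte-like cells (−0.08). In NK-like cells Atf3 stood at 33.6 against 86.3 (1.36), on 48 and 147 UMIs, the highest ratio of that class. The value was −0.01 once the 6% of cells with the highest doublet scores were removed, and the macrophage marker sum of NK-like cells was 70.0 against 147 CPM. Atf3 was 65.0 against 38.7 in B-like cells (−0.75), a call lost with cells weighted equally and in their largest cluster, and 359 against 259 in cDC1-like cells (−0.47). As a group the AP-1 genes were called higher in 24 of 77 pairs and lower in 7, beside 5.55% and 5.64% of all pairs of gene and class. Melanoma-like cells supplied 1 of the higher and 5 of the lower calls.

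**Figure D3:**
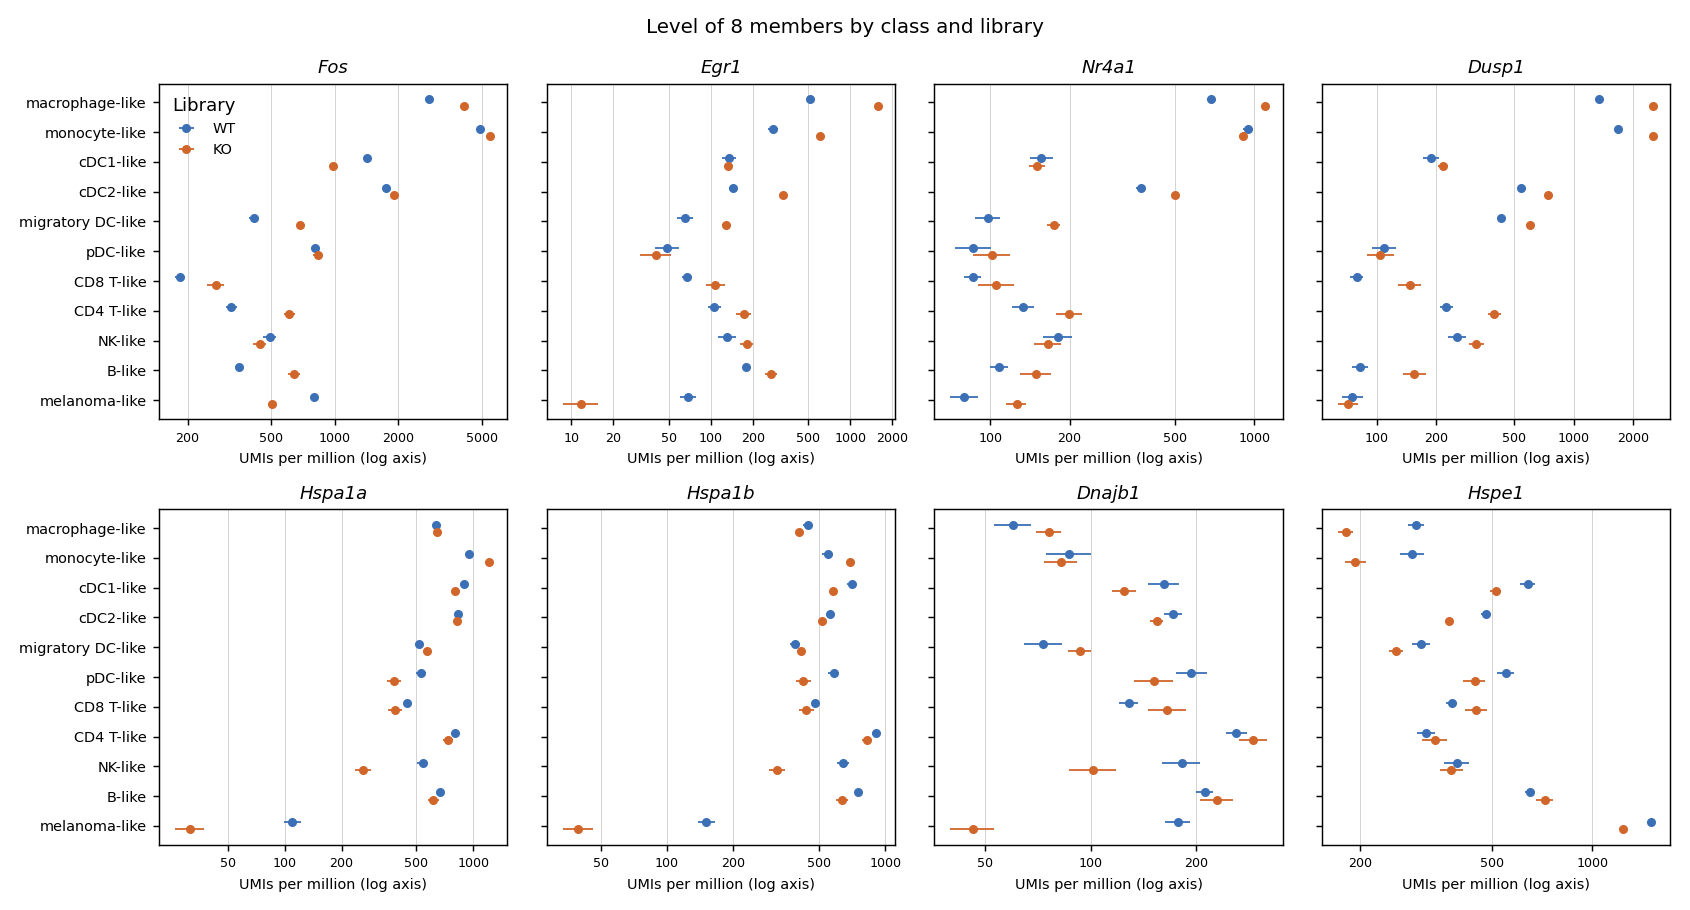
Levels of Fos, Egr1, Nr4a1, Dusp1 and of the heat shock genes Hspa1a, Hspa1b, Dnajb1 and Hspe1 in CPM (log axes) by class, in the WT (blue) and KO (orange) library, with exact Poisson 95% intervals. Egr1 of macrophage-like cells lies at 518 and 1587, whereas the Hspa1a points of those cells lie at 638 and 640.3.

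Of the 15 feedback and other early genes 12 were called higher in macrophage-like cells and 0 lower, beside 6.46% and 8.06% of all genes. The sum of the 15 was 11069 against 17064 CPM (0.62, interval 0.61 to 0.64). Dusp1, the phosphatase that switches off p38 and JNK, was 1346 against 2524 (0.91, interval 0.87 to 0.95). Dusp5, a nuclear phosphatase of ERK, was 223 against 403 (0.85), and Dusp2 was 182 against 269 (0.56). Zfp36, also known as tristetraprolin, was 1706 against 2760.4 (0.69), while its relative Zfp36l1 was 487 against 499 (0.04). All 3 phosphatase genes and 1 of the 2 message-destabilising genes thus exceeded the limit. Klf6, a Krüppel-like factor, stood at 948 against 1652 (0.80), Ier3 at 2026 against 3265 (0.69) and Rgs1, a regulator of chemokine receptor signalling, at 1105 against 1677 (0.60). The 3 members that were not called were Zfp36l1, Btg2 at 781 against 902 (0.21) and Gadd45b at 969 against 1107 (0.19), genes that slow the cell cycle. Csrnp1 (0.78), Maff (0.81), Ier5 (0.70), Ier2 (0.56) and Ppp1r15a (0.56) make up the 12.

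Dusp1 was called higher in 5 classes, beside 5.55% of all pairs of gene and class, and had the most higher calls of the feedback group. It stood at 1683 against 2523 CPM in monocyte-like (0.58), 226 against 395 in CD4 T-like (0.81), 79.3 against 147 in CD8 T-like (0.89) and 82.2 against 155 in B-like cells (0.92). Maff, a small Maf protein, had the second highest ratio in cDC2-like cells, 17.2 against 38.8 (1.17), and the third highest in migratory DC-like cells, 16.4 against 36.1 (1.13). In cDC1-like cells Dusp5 was 68.7 against 107 (0.64). Maff was too sparse to test in pDC-like and CD8 T-like cells. Most feedback values outside macrophage-like cells stayed under the limit.

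Feedback members called lower in immune cells were found in pDC-like and CD4 T-like cells. In pDC-like cells Ier3 stood at 80.8 against 22.9 CPM (−1.82), Dusp2 at 35.1 against 17.0 (−1.05) and Ppp1r15a, which restarts translation after stress, at 166 against 105 (−0.66). With every cell given equal weight the Ier3 value became −0.18 and the Ppp1r15a call was lost. The Dusp2 call was lost with only cells of 3000 to 15000 UMIs. The highest pDC-like ratios after Fosb were Dusp5 with 0.45 and Jund with 0.41, neither of them called. In CD4 T-like cells Gadd45b was 276 against 194 (−0.51), a call lost in 5 alternative settings. The lowest ratio of a feedback member in monocyte-like cells was −0.31 for Zfp36l1, at 264 against 213, which was not called, nor was Egr3 there at 6.86 against 5.02 (−0.45).

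Of the heat shock genes Hspa1a and Hspa1b encode the strictly inducible HSP70, and Dnajb1 its HSP40 partner. Hspa1a stood at 638 against 640.3 CPM in macrophage-like cells (0.00, interval −0.06 to 0.07), Hspa1b at 441 against 405 (−0.12) and Dnajb1 at 60.2 against 75.9 (0.34). In monocyte-like cells Hspa1a was 952 against 1219 (0.36), Hspa1b 545 against 693 (0.35) and Dnajb1 86.7 against 82.3 (−0.08). The macrophage-like class, with the highest activation ratio, thus had inducible heat shock levels within the limit. Among the dendritic, T-like and B-like classes, the ratio of Hspa1a lay between −0.47 in pDC-like cells, at 528 against 380.3, and 0.14 in migratory DC-like cells, at 517 against 570.3.

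NK-like cells were the immune class with the lowest inducible heat shock ratios. Hspa1a stood at 540.1 against 260.2 CPM (−1.05, interval −1.23 to −0.88), Hspa1b at 642 against 321 (interval −1.16 to −0.85) and Dnajb1 at 182 against 102 (−0.84). The constitutive members did not follow: Hspa8, the housekeeping HSC70, was 1166 against 1091 (−0.10) and Hsp90aa1 504 against 507 (0.01). NK-like cells had a median of 3652.5 UMIs in the WT and 4565 in the KO library, and the B marker sum was 206 against 13.5 CPM, measures whose part was not tested. The 3 calls held in each alternative setting with the same limit for a call.

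Hspe1, the mitochondrial co-chaperone HSP10, was called lower in the 2 classes of the macrophage lineage and was also lower, within the limit, in the dendritic classes. It stood at 294 against 181 CPM in macrophage-like (−0.70, interval −0.81 to −0.60) and at 287 against 193 in monocyte-like cells (−0.57, interval −0.72 to −0.41). Its ratio was −0.37 in cDC2-like cells, at 478 against 369, and 0.25 in CD8 T-like cells, at 377 against 448. Dnaja1, an HSP40 of the housekeeping kind, had the second lowest ratio in macrophage-like cells, at 230.5 against 171 (−0.43), and was called higher in CD4 T-like cells at 437 against 619 (0.50) and in B-like cells at 391 against 586 (0.58), calls lost in 7 and 3 alternative settings. Hspa8 and Hsp90aa1 were called in 0 of 11 classes, with ratios of −0.16 to 0.20 and −0.27 to 0.38. In CD4 T-like cells Hspa1a was 800.4 against 737 (−0.12), Hspa1b 906 against 824 (−0.14) and Dnajb1 261 against 292 (0.16). In CD8 T-like cells Hspa1a had the lowest member ratio, at 447 against 386 (−0.21), followed by Gadd45b (−0.16) and Hspa1b (−0.13).

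In dendritic and B-like cells the inducible heat shock genes stayed within the limit for a call. In cDC1-like cells Hspa1a was 896 against 804 CPM (−0.16), Hspa1b 702 against 577 (−0.28) and Dnajb1 162 against 125 (−0.38). In cDC2-like cells Hspa1a was 827 against 817 (−0.02), Hspa1b 560.2 against 515 (−0.12) and Dnajb1 172 against 155 (−0.15). B-like cells had Hspa1a at 664 against 613 (−0.11), Hspa1b at 748 against 635 (−0.24) and Dnajb1 at 212 against 229 (0.11). None of these 9 values was called, nor were Hspa1b at 582 against 422 (−0.46) and Dnajb1 at 194 against 152 (−0.36) in pDC-like cells. Among the 3 lowest ratios of the migratory DC-like class were 2 heat shock genes, Hspe1 at 305 against 256 (−0.25) and Hspa1b at 385 against 412 (0.10), with Jun at 861 against 866 (0.01) between them. Early genes among the 3 lowest elsewhere, also not called, were Maff in cDC1-like cells with 31 and 47 UMIs (−0.45), Maff in B-like cells with 25 and 5 UMIs (−0.35) and Dusp2 in cDC2-like cells at 97.8 against 86.8 CPM (−0.17). The third highest ratio of NK-like cells was that of Egr2, 14.7 against 21.1 CPM on 21 and 36 UMIs (0.53), whose interval of −0.29 to 1.38 includes 0.

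Per cell, after every cell had been thinned to 2000 UMIs, macrophage-like cells held a median of 16 activation UMIs in the WT and 25 in the KO library, with quartiles of 8 and 26 against 15 and 39. Their median heat shock UMIs were 6 and 5. The whole distribution lay higher for the activation set, and not only a tail. Egr1 had a UMI in 39.9% of 476 WT and 69.1% of 763 KO macrophage-like cells (exact binomial intervals 35.5 to 44.5 and 65.7 to 72.3), and in 3.66% and 7.64% of pDC-like cells, the lowest shares of an immune class. Before thinning those macrophage-like shares were 58.3% and 80.8%. Hspa1a had a UMI in 36.1% and 38.9% of the same macrophage-like cells. In CD8 T-like cells the activation median was 2 against 4 UMIs, in CD4 T-like cells 4 against 6, in B-like cells 4 against 7 and in monocyte-like cells 25 against 26. The thinning left out 52 WT and 35 KO macrophage-like cells, and 739 WT and 60 KO B-like cells.

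The spread of heat shock UMIs over cells differed between classes. In macrophage-like cells the top 5% of cells held 26.4% of the heat shock UMIs in the WT and 26.8% in the KO library, against 14.6% and 12.4% of the activation UMIs. In WT cDC1-like cells the top 5% held less of the heat shock UMIs, 14.8%, than of the activation UMIs, 19.1%, and the order was the same in KO cDC1-like cells. The CD8 T-like values were 15.1% and 14.7% for heat shock and 17.9% and 15.1% for activation UMIs. At least 20 of 2000 UMIs came from heat shock genes in 26 of 476 WT cells, or 5.46% (exact interval 3.60 to 7.90), and in 53 of 763 KO cells, or 6.95% (5.25 to 8.99). This limit was chosen after the data had been seen, and 36 WT and 51 KO cells lay within 5 UMIs of it. In these cells the inducible genes Hspa1a, Hspa1b and Dnajb1 supplied 45.2% and 44.1% of the heat shock UMIs, against 24.3% and 26.3% in the other macrophage-like cells. The cells were picked by a sum that includes these genes, so this contrast is not independent of the selection. The median activation UMIs of the picked cells were 18.5 and 29, against 16 and 25 in the others. The shares of such cells were 10.0% and 10.7% in monocyte-like, 9.73% and 9.70% in CD4 T-like and 9.91% and 7.45% in cDC2-like cells, and 6 of 273 and 2 of 278 NK-like cells were among them.

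**Figure D4:**
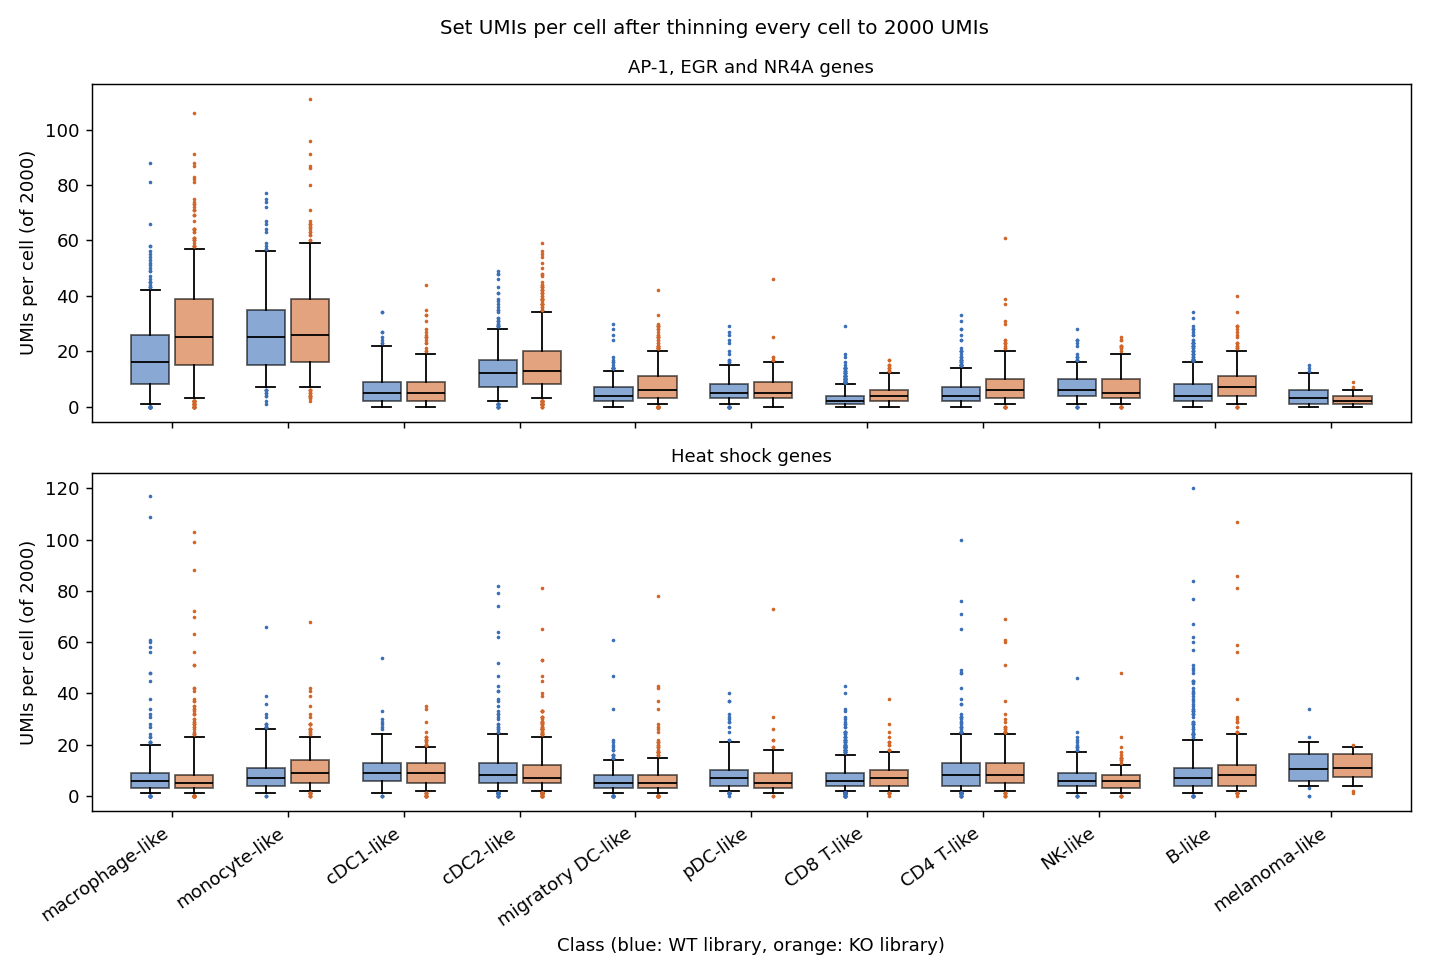
UMIs per cell of the activation set (top) and the heat shock set (bottom) after thinning each cell to 2000 UMIs, by class, for the WT (blue) and KO (orange) library. Boxes span the quartiles with the median as a line, whiskers reach the 5th and 95th percentiles, and the medians of macrophage-like cells are 16 and 25 for the activation set and 6 and 5 for the heat shock set.

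Across cells of a class the 2 sets were weakly related. Spearman's rho between thinned activation and heat shock UMIs was 0.16 in both libraries over 476 and 763 macrophage-like cells and −0.07 and −0.03 over 240 and 420 monocyte-like cells. The highest immune value was 0.34, over 323 KO cDC1-like cells. Cells of a library share 1 preparation, and counts per cell are sparse, so these values are descriptions.

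Within macrophage-like cells 2 clusters differed in direction. The larger, with 459 WT and 749 KO cells and led by Arg1 and Ccl7, had activation sums of 9660 and 14345 CPM (0.57, interval 0.55 to 0.59) and heat shock sums of 3814 and 3812. The smaller, with 69 WT and 49 KO cells and led by Ccl8, Igf1 and Folr2, had activation sums of 2943 and 942 (−1.64, interval −1.88 to −1.41) and heat shock sums of 4939 and 2301 (−1.10). B-like cells likewise joined clusters of unlike make-up: 1 with 930 WT and 329 KO cells had an activation ratio of 0.41, 1 with 474 and 49 shallow cells 0.69, and 1 with 428 and 19 cells −0.42.

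Companion gene lists were counted by the same rule, beside 6.46% of all genes called higher and 8.06% lower in macrophage-like cells. Of 26 further early genes tested in macrophage-like cells 7 were called higher and 2 lower, with a median ratio of 0.32. Tnfaip3, an inhibitor of NF-kappaB, had the highest at 406 against 751 CPM (0.89), and Id1, a partner of basic helix-loop-helix factors, the lowest at 14.9 against 8.06 (−0.88). Of 18 further heat shock and co-chaperone genes 0 were called higher and 5 lower, with a median of −0.32, from Bag3 at 18.7 against 22.5 (0.27) to Hspb1, the small heat shock protein HSP27, on 176 and 103 UMIs (−1.61). Of 11 genes of endoplasmic reticulum and integrated stress 0 were higher and 4 lower, the lowest being Creld2 at 65.6 against 33.1 (−0.99) and the highest Trib3 at 1.58 against 2.27 (0.52), not called. Among 6 oxidative stress genes 1 was higher, Sqstm1 with 0.53, and 2 lower, the lowest being Gclm at 48.4 against 23.3 (−1.06). Of 13 upstream factors and kinases 2 were called higher and 0 lower, Ets2 with 0.58 being the highest.

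In CD8 T-like cells 7 of 23 further early genes were called higher and 0 lower, beside 5.15% and 3.71% of all genes, led by Socs3, a brake on cytokine signalling, at 17.8 against 35.4 (0.99). CD4 T-like cells had 5 of 22 higher and 0 lower, beside 4.46% and 3.16% of all genes, led by Klf4 at 13.2 against 40.6 (1.62). Further heat shock genes were called in 0 of 18 in CD8 T-like cells, and in CD4 T-like cells in 2 of 17, both higher and both heat shock factor genes, Hsf1 (0.57) and Hsf2 (1.30). In NK-like cells 1 of 16 was higher, Stip1 at 32.9 against 71.7 (1.12), and 1 lower, Hsph1, which is HSP110, at 144 against 86.9 (−0.73), beside 2.86% and 4.47% of all genes. Counts of 1 in each direction are no result about the list.

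Melanoma-like cells cannot be given a direction. Their activation sum was 2258 in the WT and 1531 CPM in the KO library (−0.56), with 4 of 12 tested members called higher and 7 lower beside 15.4% and 8.49% of all genes. With every cell given equal weight the ratio was 0.67. The 5 cells richest in activation UMIs held 49.8% of them in the WT and 35.1% in the KO library, and the median cell had 811 and 725 UMIs. The NR4A members were the highest in ratio, Nr4a2 at 13.5 against 29.5 (1.13), Nr4a3 at 57.2 against 117 (1.04) and Nr4a1 at 79.8 against 126 (0.66), and Egr1 at 68.4 against 11.7 (−2.55), Btg2 at 76.0 against 13.9 (−2.45) and Egr2 at 6.46 against 1.22 (−2.40) the lowest. Fos was 798 against 503 (−0.67), and Hspa1a was 109 against 31.2 (−1.81).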

How the data were processed

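The authors deposited raw UMI counts per gene and cell barcode, with no normalization, for 1 WT and 1 KO library. Cell Ranger 4.0.0 is named per the file headers, and Cell Ranger 3.1.0, with bcl2fastq 2.20, Seurat 4.0.1 and the build GRCm38, per the submitters' processing notes. The smallest barcode total was 500 UMIs.

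Barcodes with under 200 genes or over 15% mitochondrial UMIs were removed. Scrublet (scanpy 1.11.5) marked 0 of 8936 WT and 2 of 5688 KO cells and so did not work as a doublet filter. The 2 cells were removed. Counts were scaled to 10000, logged, and clustered on 2000 variable genes without the members and companion lists (30 components, 15 neighbours, Leiden resolution 1.0). Clusters were named from marker lists.

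UMIs were summed per class and library and divided by the class total (counts per 1000000 UMIs, CPM, exact Poisson 95% intervals). Log2 ratios carry exact conditional binomial 95% intervals. The ratios and calls, but not the coverage of the intervals, were checked on simulated counts with known changes. A count of 0 takes a floor of 3 UMIs. No test was possible with 1 library per group. Members and lists were chosen with earlier results of these data known. Named in each class are the 3 highest and 3 lowest ratios among members with at least 20 UMIs, with Fos, Egr1, Nr4a1, Hspa1a, Hspa1b and Dnajb1, and the highest and lowest gene of a companion list where that list is described; others were named after their values were seen.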

Additional observations from a re-analysis of the deposited data

Results flagged for a closer look

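The following results point in opposite directions in 2 classes, as log2 ratios of KO over WT that are each past the limit. None of these differences was tested, because there is 1 library per genotype.

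The sums of whole groups were higher in an immune class and lower in melanoma-like cells. The activation sum of macrophage-like cells lay 1.16 above that of melanoma-like cells on the log2 scale, and the feedback sum 1.32 above. The AP-1 sum of CD4 T-like cells lay 1.23 above, and the EGR sum of macrophage-like cells 3.95 above. The melanoma-like values changed sign when every cell was given equal weight for the activation sum.

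Single genes were called in both directions among immune classes. Fos differed by 1.46 between CD4 T-like and cDC1-like cells, and Atf3 by 2.11 between NK-like and B-like cells. The Atf3 value of NK-like cells changed sign in 2 settings and the call in B-like cells was lost in 2. In pDC-like cells 5 genes were lower: Egr2 differed by 3.83 from CD8 T-like cells, Nr4a2 by 1.68 and Ier3 by 2.80 from CD4 T-like cells, and Dusp2 by 1.61 and Ppp1r15a by 1.22 from macrophage-like cells. The pDC-like calls of Nr4a2, Ier3 and Ppp1r15a were lost with cells weighted equally. Those of Dusp2 and Ppp1r15a were lost with only cells of 3000 to 15000 UMIs. Egr2 in pDC-like cells rests on 21 and 3 UMIs, and its CD8 T-like call was lost in 2 settings. Gadd45b differed by 1.20 between B-like and CD4 T-like cells, and each of these calls was lost in 5 settings.

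The activation ratio of the larger macrophage-like cluster lay 2.21 above that of the smaller one, which held 69 WT and 49 KO cells.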

How the results depend on the processing

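No paired analysis was possible because each genotype has 1 library. Values were recomputed under 11 other settings, of which 1, the largest cluster of each class, was chosen after seeing the data. The activation members called higher in macrophage-like cells numbered 10, and 1 when a log2 ratio of at least 1 was asked. The classes with the activation sum called higher numbered 5, and 3 with cells weighted equally, 3 without the 5 cells of each library richest in the gene or sum, 3 with the members kept among the genes to cluster, 2 at Leiden resolution 0.5, 0 at a log2 ratio of at least 1 and 3 with only the largest cluster of each class. The AP-1, EGR and NR4A sum in macrophage-like cells, 0.60, was 0.63 with median-of-ratios scaling, 0.52 with cells of 3000 to 15000 UMIs, 0.63 without the 5 cells of each library richest in the gene or sum, 0.52 with the members kept among the genes to cluster and 0.57 in the largest cluster. The heat shock sum in macrophage-like cells, −0.04, was 0.033 with cells weighted equally, 0.030 without the 5 richest cells and −0.00059 in the largest cluster. The other 4 classes with a called activation sum each fell under the limit in some setting. Their lowest ratios were 0.43 in migratory DC-like, 0.41 in CD4 T-like, 0.44 in CD8 T-like and 0.38 in B-like cells. In macrophage-like cells the lowest was 0.52, over the settings in which that class was compared. The heat shock sum passed the limit in 0 classes in each setting.

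Atf3 in NK-like cells became −0.29 with cells of 3000 to 15000 UMIs and −0.012 without the 6% highest Scrublet scores. With cells weighted equally, the AP-1, EGR and NR4A sum in melanoma-like cells became 0.67, Fos in melanoma-like cells 0.53, Egr1 in melanoma-like cells 0.25, Btg2 in melanoma-like cells 0.30, Hspa1a in melanoma-like cells 0.81 and Hspa1b in melanoma-like cells 0.70. The cause was not tested. The all-gene median ratio was −0.11 in B-like and 0.18 in melanoma-like cells, and with median-of-ratios scaling, which removes it, their activation ratios were 0.61 and −0.74. Of 103 called member values in immune classes, 56 kept their call in every one of the 9 settings applied to single members that gave a value, and 2 of 889 comparisons changed sign. A log2 limit of 1 is not among those settings, and 23 of the 103 values reach it. At resolution 0.5 the macrophage-like class held 69 WT and 49 KO cells and no cluster was named monocyte-like, so neither was compared, and melanoma-like cells numbered under 100 in 4 alternatives.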

Other observations

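In barcodes removed for more than 15% mitochondrial UMIs, 734 WT and 665 KO, both sets made up a larger share of UMIs than in kept cells. The activation sum was 6155 in the WT and 8122 CPM in the KO library, against 4337 and 6878 in kept cells. The heat shock sums were close, at 4561 and 4583 against 4435 and 4385 CPM. Per 1000000 UMIs of nuclear genes the removed barcodes had activation sums of 8373 (WT) and 11528 (KO), against 4454 and 7052 in kept cells. Their heat shock sums on that scale were 6205 and 6504, against 4554 and 4496. All these sums pool every class, and the kept libraries differ in make-up, with 5.91% of WT and 14.0% of KO cells macrophage-like. The classes of the removed barcodes were not determined, so these values do not compare like cells.

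Classes too small to compare are given as levels. Mast or basophil-like cells, 24 WT and 9 KO, had the highest activation sums of all named classes, 14674 and 22832 CPM. Neutrophil-like cells, 145 and 24, had activation sums of 8302 and 8306 and heat shock sums of 2424 and 4739. Treg-like cells, 97 and 127, had activation sums of 3639 and 3252 and heat shock sums of 4249 and 3626. An unnamed cluster of 375 WT and 345 KO cells with a mean mitochondrial share of 9.53% had activation sums of 11528 and 14395 and the highest heat shock sums of the unnamed clusters, 7488 and 7875.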
